A study of Mus musculus with 69 samples.

Results

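The genes described here are 8 genes that heart muscle is known to regulate under stretch and stress: Xirp1, Xirp2, Flnc, Ankrd1, Nppa, Nppb, Myh7 and Acta1. They were chosen by symbol, with earlier results of these data known. Each probe set annotated to one of them alone was taken as a measurement of that gene. The deposited table measured 7 of the 8, out of 17097 genes with a symbol of their own, through 9 probe sets, and all 9 passed the filter on dim probe sets. Ankrd1 and Myh7 had 2 probe sets each. No probe set was annotated to Xirp2, which is not analysed here.

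The samples were 69 Affymetrix expression arrays of heart RNA. The mice were CD-1, an outbred stock, all adult males of 20 to 35 g, exposed to cyanide while not anesthetized. In the injection arm, KCN (potassium cyanide, 8.0 mg/kg under the skin) was set against an injection of saline, and hearts were taken at 1, 2, 4, 8 and 24 h. In the inhalation arm, HCN (hydrogen cyanide gas, 327 ppm, breathed through the nose only) was set against air, and hearts were taken at 1, 2, 4 and 24 h. The 18 groups held 4 arrays each, except KCN at 4 h, saline at 2 h and saline at 4 h, which held 3 each. Every array is labelled a biological replicate and was taken as 1 mouse. A p-value therefore sets a difference of means against the spread between hearts. In limma that spread was estimated over all 18 groups together. No allele, drug or anesthetic that all groups share is named in the labels.

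The wall of the heart senses load at the Z-disc, where the thin filaments of neighbouring sarcomeres are anchored, and at the intercalated disc, where cardiomyocytes join. Xirp1 and Xirp2 (the Xin proteins) bind actin at the intercalated disc, and filamin C, encoded by Flnc, cross-links actin around the Z-disc. Ankrd1 encodes an ankyrin repeat protein that binds titin in the sarcomere and also enters the nucleus. Nppa and Nppb encode the natriuretic peptides ANP and BNP, hormones released by stretched cardiomyocytes that lower blood volume and pressure. Myh7 (beta myosin heavy chain) and Acta1 (skeletal alpha-actin) are sarcomere isoforms that the adult mouse ventricle uses little and raises again under chronic load.

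Xirp1 rose at 1, 2 and 4 h after HCN and at 1 h after KCN, and Flnc rose at 2, 4 and 24 h after HCN. Ankrd1 was called slightly lower at 2 and 24 h after HCN in 1 of its 2 probe sets and was not called in the other. Neither call was kept with the actin 3′ to 5′ ratio, which grows as RNA is shortened, as a covariate. At 24 h that ratio separated HCN from air hearts, so that fit cannot tell ratio and exposure apart. Myh7 moved in opposite directions at 4 and 24 h after KCN in 1 of its 2 probe sets. That Myh7 set can match transcripts of more than 1 gene, and the other Myh7 set was not called at these times. Nppa, Nppb and Acta1 were not called in any of the 9 comparisons. A call is an adjusted p under 0.05 in limma, with Benjamini-Hochberg adjustment over all 26755 probe sets tested, and a member with 2 probe sets was counted by the one of higher mean signal.

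Of the 7 measured members, 1 was called at 1 h after HCN, where 2.68% of all probe sets tested were called. At 2 h after HCN 3 were called against 25.3% of all probe sets, at 4 h 2 against 7.35%, and at 24 h 2 against 14.3%. After KCN, 1 member was called at 1 h, against 4.09% of all probe sets, 1 at 4 h against 2.26%, and 1 at 24 h against 11.9%. At 2 h after KCN 0 members were called by limma, and 0 had an unadjusted p under 0.05, against 6.59% of all probe sets called. At 8 h after KCN 0 were called by limma and 1 had an unadjusted p under 0.05, against 0.336% of all probe sets called. Averaged over times, 3 members were called after HCN (21.5% of all probe sets) and 1 after KCN (9.52%). The share of members called at 2 and 24 h after HCN has to be read against the large share of all probe sets called at those times. Since the members were chosen with earlier results of these data known, these counts are descriptions and not a test of the set. Groups that did not overlap numbered 2 members at 1, 2 and 4 h after HCN and 3 at 24 h, where 9.18%, 18.1%, 13.3% and 20.1% of all probe sets did not overlap. After KCN they numbered 1 at 1 h, 1 at 4 h and 2 at 24 h, against 14%, 18.3% and 22.6% of all probe sets. At 2 and 8 h after KCN the groups overlapped for all 7 members, where 15.9% and 4.16% of all probe sets did not overlap.

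**Figure D1:**
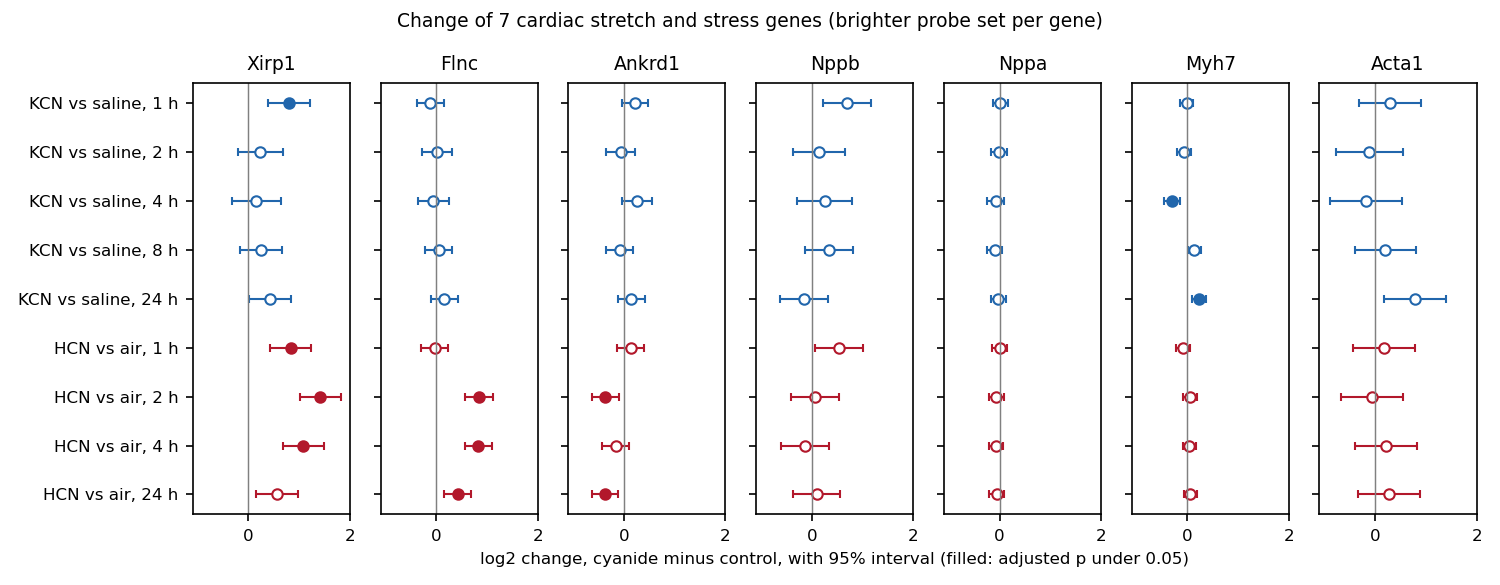
Change of the 7 measured genes in each of the 9 comparisons, as log2 signal in cyanide hearts minus control hearts (horizontal axis), with 95% intervals; KCN comparisons are blue, HCN comparisons red, and filled points passed an adjusted p of 0.05. Xirp1 reaches 1.42 and Flnc 0.84 at 2 h after HCN, while every interval of Nppa includes 0.

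Some facts of the arrays stand beside these results. The actin control ratio (log2, 3′ over 5′ probe sets), which grows as RNA is shortened, was 1.22 ± 0.61 at 2 h after HCN against 0.452 ± 0.143 in air (SD, n = 4 each, exact permutation p = 0.0571, adjusted 0.129). At 24 h it was 0.979 ± 0.255 after HCN against 0.386 ± 0.0447 in air (p = 0.0286, the smallest that the exact permutation test can give, adjusted 0.0857). It ran the other way in the injection arm, at 0.480 after KCN against 0.841 after saline at 1 h and at 0.473 against 0.878 at 24 h. The Gapdh ratio of the same kind was 0.38 ± 0.34 at 2 h after HCN against -0.15 ± 0.02 in air. At 24 h it was 0.19 ± 0.08 against -0.03 ± 0.05. Both gave the smallest exact permutation p, 0.0286 (adjusted 0.129), so HCN and air hearts did not overlap in it. The 18S control signal did not overlap at 24 h, at 12.60 after HCN against 12.94 in air and 12.55 after KCN against 12.90 after saline. Transcripts of airway epithelium varied widely between hearts of 1 group. The mean log2 level of Scgb1a1 and Bpifa1 was 11.11 to 11.56 in the 4 hearts at 1 h after KCN and 2.71 to 2.98 in the 4 at 1 h after saline. The summed level of all 4 measured lung markers was 12.15 to 12.89 against 4.84 to 4.95 in those groups, and it ranged from 4.87 to 13.25 at 1 h after HCN and from 5.98 to 13.16 in air. The 3 measured adipocyte markers had median changes of 1.88 to 2.46 at the 5 times after KCN. Limma called 0 of them at any single time, and 1 or 2 had an unadjusted p under 0.05. In the average over times, against 9.52% of all probe sets called, 2 of the 3 were called higher. Their summed level was 9.10 to 11.15 in KCN hearts of 1 h, against 6.50 to 8.56 in saline hearts, and Adipoq averaged 9.59 against 7.32. After HCN their median changes ran from -0.70 to 0.07. The part of adipose transcripts in the KCN changes of the members was not tested. Ventricular markers were high throughout (Myl2 averaged 13.55 and Myl3 13.37), and atrial Myl7 and Myl4 averaged 12.18 and 12.10, so the samples carried transcripts of both chambers. Of 12 skeletal muscle markers, 6 to 9 lay below the filter threshold of 3.227 in each group, among them Myh1 at 2.71 and Myh4 at 2.67. Myl1 of the same list averaged 11.60, and Tnni2, Mylpf and Actn3 averaged 4.05, 3.73 and 3.50. Signal levels were compared within a route only, since the 2 arms have different distributions of values. In RNA of whole hearts, fewer cells of a type and less RNA per cell cannot be told apart.

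Xirp1 (chr9:120013755-120023598, GRCm38.p6) was the member with the largest changes, and it rose after both forms of cyanide. At 2 h after HCN its log2 signal was 10.03, 9.24, 9.79 and 9.67, against 8.29, 8.23, 8.65 and 7.88 in air. The lowest HCN heart lay above the highest air heart. The change was 1.42 ± 0.21 on the log2 scale (SE, here and below), a 2.68-fold rise (95% interval 2.01 to 3.56, adjusted p = 8.77e-07). At 4 h the HCN hearts had 9.82, 9.19, 9.29 and 9.32, against 8.46, 8.61, 8.01 and 8.20 in air, again without overlap. This was a 2.12-fold rise (1.59 to 2.82, adjusted p = 0.000243).

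At 1 h the 4 HCN hearts had Xirp1 signals of 9.45, 9.25, 8.84 and 8.90, against 7.98, 8.16, 8.14 and 8.84 in air. The highest air heart lay just under the lowest HCN heart, and the rise was 1.78-fold (1.34 to 2.37, adjusted p = 0.0119). Without Air 1 h replicate 1 the adjusted p was 0.0617, and without HCN 1 h replicate 1 it was 0.0788. Fitted with these 2 groups alone, the adjusted p came to 0.0551. At 24 h the HCN hearts lay between 8.24 and 8.74 and the air hearts between 7.60 and 8.13. Those groups did not overlap, but the change of 0.56 ± 0.21 missed the threshold (adjusted p = 0.0574). It was called in the fit of these 2 groups alone (0.025) and with the atrial level (0.0392) or the airway level (0.0496) as a covariate. Averaged over the 4 times, Xirp1 was 1.96-fold higher after HCN (1.70 to 2.27, adjusted p = 2.44e-10), and the F test for a change that differs between times gave an adjusted p of 0.0888.

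After KCN, Xirp1 rose at the earliest time. At 1 h the KCN hearts had 8.34, 8.42, 8.63 and 8.42, against 7.51, 7.75, 7.72 and 7.63 after saline. The groups lay well apart, with a 1.74-fold rise (1.31 to 2.32, adjusted p = 0.0137). Leaving out KCN 1 h replicate 3 gave an adjusted p of 0.0548. The airway transcripts separated the same 8 hearts, and with their level as a covariate the change was 0.91 ± 0.23 (adjusted p = 0.0154). Since that level separates all KCN from all saline hearts here, this fit cannot tell the airway level from KCN exposure. At 2 h the KCN hearts had 9.17, 8.49, 9.36 and 8.34, against 8.91, 8.34 and 8.57 after saline, a change of 0.23 ± 0.22 (adjusted p = 0.62). At 4 and 8 h the changes were 0.16 ± 0.24 and 0.25 ± 0.21 (adjusted p = 0.797 and 0.678). At 24 h the KCN hearts lay between 7.52 and 7.84 and the saline hearts between 7.19 and 7.36, without overlap, and the change of 0.42 ± 0.21 was not called (adjusted p = 0.185). Averaged over the 5 times, Xirp1 was 1.29-fold higher after KCN (1.13 to 1.48, adjusted p = 0.00866).

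The saline controls of Xirp1 did not stay level. In time order from 1 to 24 h their means were 7.66 ± 0.11, 8.61 ± 0.29, 8.03 ± 0.43, 7.48 ± 0.09 and 7.28 ± 0.10 (SD, n = 4 except n = 3 at 2 and 4 h). The F test over these groups gave an adjusted p of 2.63e-05, and 38.4% of all probe sets were called in it. Saline hearts at 2 h thus lay above every KCN heart of 8 and 24 h. The same 3 saline hearts had a low 18S ribosomal control signal, 10.82 ± 0.49 against 12.55 ± 0.07 in the KCN hearts of 2 h, and without the 2 h comparison the average KCN change of Xirp1 was 0.41 ± 0.11 (adjusted p = 0.0102). Air controls were at 8.28, 8.26, 8.32 and 7.92 (group means at 1, 2, 4 and 24 h, F test adjusted p = 0.368). In the order of the 8 inhalation groups by Xirp1 level, HCN at 2, 4 and 1 h came first with overlapping ranges, HCN at 24 h followed below them without overlap, and the 4 air groups came last. In the 10 injection groups the order ran from KCN at 2 h (8.84) and saline at 2 h (8.61) down to saline at 8 h (7.48) and 24 h (7.28), and saline at 8 and 24 h formed the one neighbouring pair whose ranges did not overlap.

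**Figure D2:**
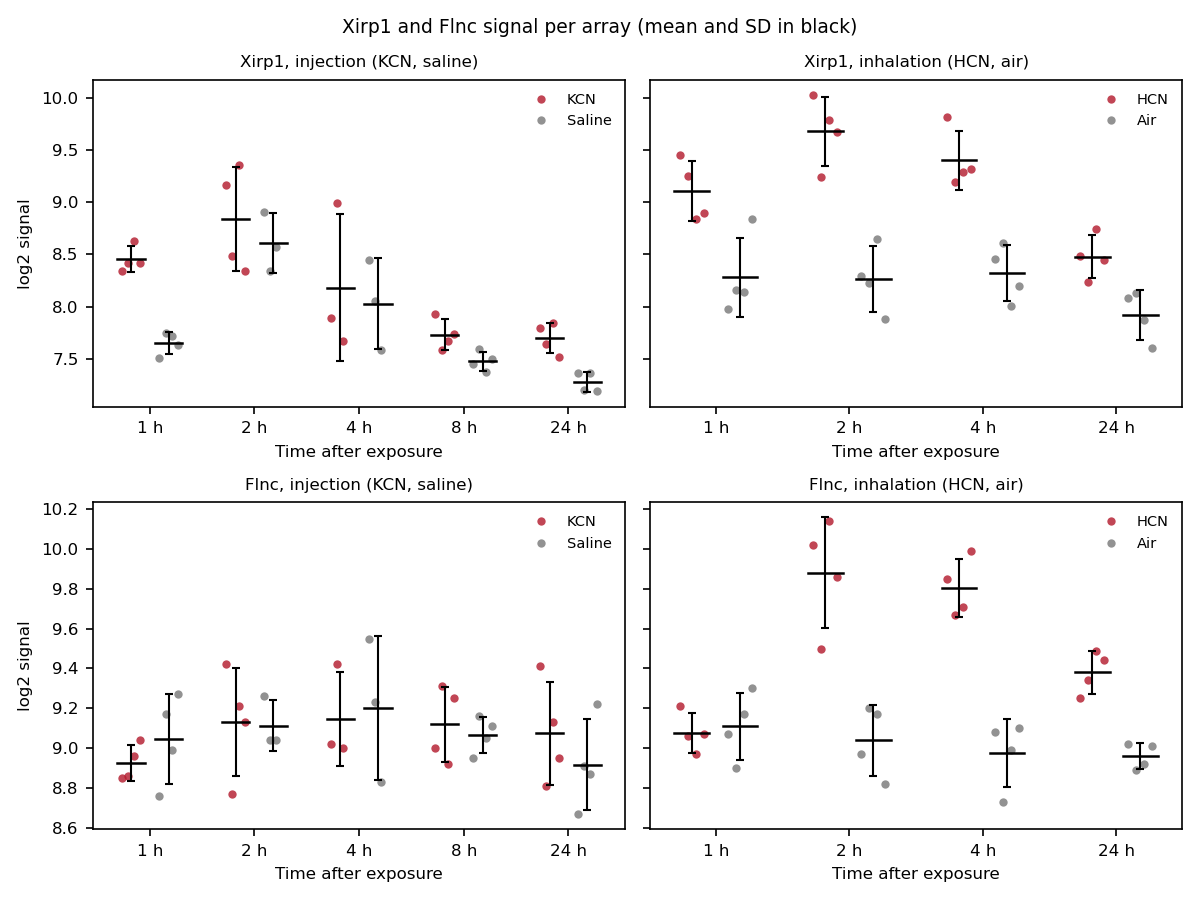
Log2 signal of Xirp1 (top) and Flnc (bottom) in each heart (points), with group mean and SD in black, at each time after exposure; cyanide groups are red and their controls gray, injection on the left and inhalation on the right. The HCN hearts at 2 and 4 h stand above all air hearts of their time in both genes, and Flnc shows no such separation after KCN.

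Flnc (chr6:29433153-29461889, GRCm38.p6) rose after HCN and not detectably after KCN. Its probe set carries the suffix x, by which Affymetrix marks sets with some probes similar to other sequences. At 2 h after HCN the hearts had log2 signals of 10.02, 9.50, 10.14 and 9.86, against 8.97, 9.20, 9.17 and 8.82 in air. All 4 HCN hearts lay above all 4 air hearts, a 1.79-fold rise (1.49 to 2.16, adjusted p = 4.98e-06). At 4 h they had 9.85, 9.67, 9.71 and 9.99, against 9.08, 8.73, 8.99 and 9.10 in air, a 1.78-fold rise (1.48 to 2.14, adjusted p = 1.96e-05). At 24 h they had 9.25, 9.34, 9.49 and 9.44, against 9.02, 8.89, 8.92 and 9.01 in air, and the separation was smaller, 1.34-fold (1.11 to 1.61, adjusted p = 0.0262).

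At 1 h Flnc was not called. The HCN hearts lay between 8.97 and 9.21 and the air hearts between 8.90 and 9.30, and the change was -0.03 ± 0.13 (95% interval -0.30 to 0.24, adjusted p = 0.952). The F test for a change that differs between times after HCN gave an adjusted p of 0.000688, and 27.3% of all probe sets were called in that test. After KCN the 5 changes of Flnc ran from -0.12 at 1 h to 0.16 at 24 h, each with an SE of 0.13 to 0.16, and their average was 0.01 ± 0.06 (adjusted p = 0.945). The 10 injection groups had means between 8.92 and 9.20 and neighbouring groups overlapped throughout. In the inhalation arm, HCN at 2 h (9.88) and 4 h (9.81) headed the order with overlapping ranges, HCN at 24 h (9.38) lay below both, and the remaining groups, HCN at 1 h among them, lay between 8.96 and 9.11.

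The actin ratio was high at 2 and 24 h after HCN, and Xirp1 and Flnc were refitted with that ratio as a covariate. Xirp1 kept its calls at 1, 2 and 4 h after HCN and at 1 h after KCN. Flnc kept its calls at 2 and 4 h, while at 24 h its change became 0.47 with an adjusted p of 0.101. The ratio separated exposed from control hearts at 24 h after HCN and at 1 h after KCN. Those fits cannot tell ratio and exposure apart. Flnc at 24 h also lost its call when 1 of 3 hearts was left out: the adjusted p was 0.0643 without Air 24 h replicate 2, 0.063 without Air 24 h replicate 3 and 0.0872 without HCN 24 h replicate 3. Without the 2 HCN hearts of 2 h that had the highest actin ratios (1.49 and 1.95, against 0.79 and 0.64 in the other two), the changes against air at 2 h were 1.47 for Xirp1 and 0.96 for Flnc, and both stayed called. The plot of called changes under other settings shows the fits adjusted for the actin ratio. The Gapdh ratio separated HCN from air hearts at both 2 and 24 h, and its part in these changes was not tested.

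The promoter of Flnc was read from RefSeq (GRCm38.p6), from 250 bases before to 50 after the first of its 2 annotated starts, and is shown because Flnc had the largest called change among the members whose promoter the table holds. It lies at chr6:29432903-29433202 on the plus strand, and capitals mark an M-CAT element (CATTCC, the site of TEAD factors) at that start and the core of a cAMP response element (TGACG). Counted from the second start, the M-CAT element lies 104 to 99 bases before it and the TGACG core 82 to 78 bases before it.
Flnc: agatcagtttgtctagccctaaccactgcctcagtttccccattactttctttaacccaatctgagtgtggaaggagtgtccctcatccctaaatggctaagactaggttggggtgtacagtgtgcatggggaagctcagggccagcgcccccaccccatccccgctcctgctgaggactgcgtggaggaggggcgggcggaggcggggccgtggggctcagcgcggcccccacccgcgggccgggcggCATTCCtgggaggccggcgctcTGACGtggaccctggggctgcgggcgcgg
On both strands, 14.7% of the 32851 mouse promoters of this length hold the M-CAT letters and 20.8% hold the TGACG letters.

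Ankrd1 (chr19:36111965-36119844, GRCm38.p6) gave different answers in its 2 probe sets. In the brighter one, the HCN hearts of 2 h had 12.33, 11.75, 12.88 and 12.66, against 12.86, 12.61, 12.94 and 12.70 in air. The groups overlapped, with 1 HCN heart far below the rest, and the change was -0.37 ± 0.13 (adjusted p = 0.0296). At 24 h the HCN hearts had 12.46, 12.36, 11.92 and 12.41, against 12.69, 12.59, 12.64 and 12.72 in air, without overlap, and the change was -0.37 ± 0.13 (adjusted p = 0.0425). In the other probe set, the same comparisons gave 0.24 ± 0.11 and 0.02 ± 0.11 (adjusted p = 0.102 and 0.918). The brighter probe set therefore fell at both times and the dimmer one was not called.

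The 2 HCN hearts with the lowest Ankrd1 signal at 2 h were also the 2 with the highest actin ratios. Without them the change was -0.01 (adjusted p = 0.986), and with the actin ratio as a covariate it was 0.05 at 2 h and -0.05 at 24 h (adjusted p = 0.861 and 0.921). The ratio separated HCN from air hearts at 24 h, so that fit cannot tell ratio and exposure apart. At 24 h, 3 of 7 atrial markers were lower and 0 higher after HCN, where 14.3% of all probe sets were called. The median change over the list was -0.59. With the level of the atrial transcripts Myl7 and Myl4 as a covariate the change of Ankrd1 was -0.32 (adjusted p = 0.101). Leaving out single hearts moved the change at 2 h between -0.15 (without HCN 2 h replicate 2, adjusted p = 0.402) and -0.53, and 4 of those 8 fits kept the call. At 24 h 2 of 8 such fits kept it, and the change ran from -0.43 to -0.25 (without HCN 24 h replicate 3, adjusted p = 0.265). After KCN the 5 changes of this probe set ran from -0.09 to 0.26 and the lowest adjusted p was 0.395.

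**Figure D3:**
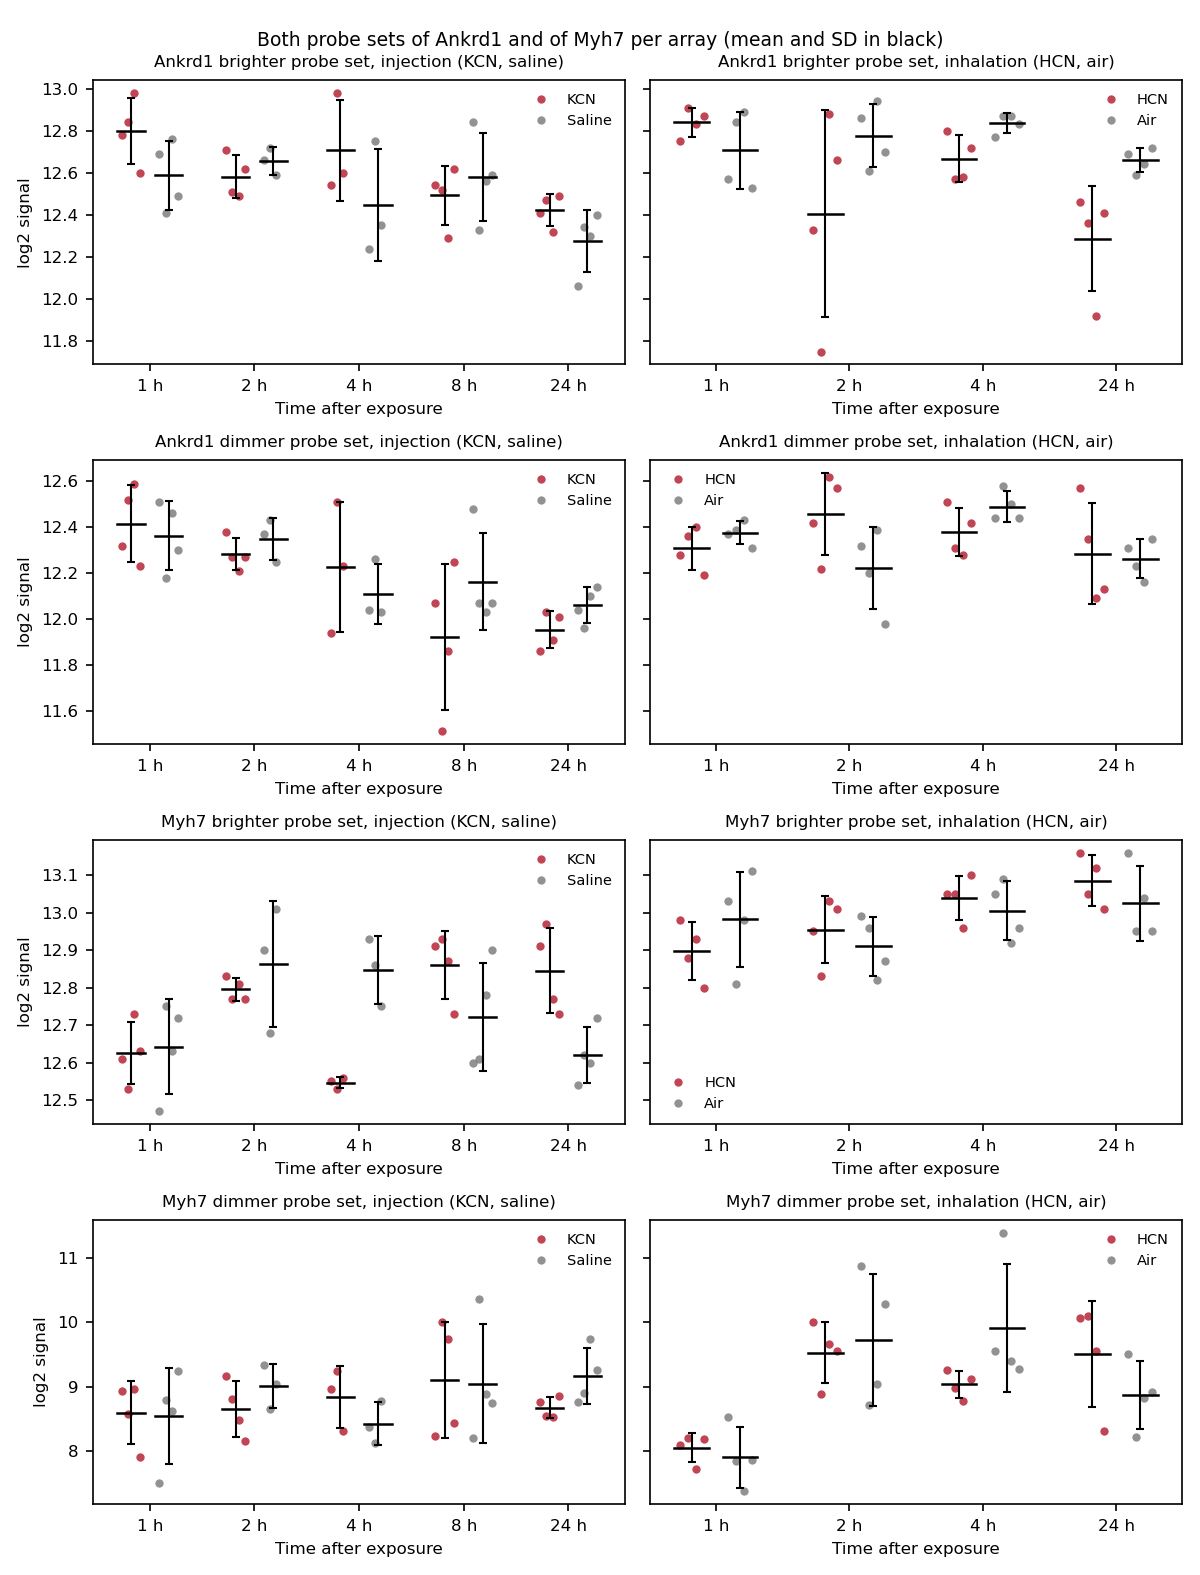
Log2 signal of the brighter and the dimmer probe set of Ankrd1 (upper 2 rows) and of Myh7 (lower 2 rows) in each heart, with group mean and SD in black; cyanide groups are red and their controls gray, injection on the left and inhalation on the right. The 2 probe sets of a gene do not move together: at 24 h after KCN the brighter Myh7 set changed by 0.23 and the dimmer one by -0.49.

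The natriuretic peptide genes lie 13516 bases apart on chromosome 4, Nppb at chr4:147985786-147987205 and Nppa at chr4:148000722-148002074 (GRCm38.p6), both on the plus strand. Their promoters, from RefSeq and of the same 300 bases (250 before and 50 after the start), are shown side by side because the 2 genes are neighbours with related products. Capitals mark GATA sites (AGATAA or TGATAA, held by 18.6% of all promoters on either strand), an M-CAT element read on the minus strand in Nppb (GGAATG) and a TGACG core in Nppa. The GATA sites of Nppb begin 95 and 84 bases before its start, and that of Nppa begins 122 bases before its start. An AP-1 site (TGACTCA, held by 5.2% of all promoters) was also searched for and not matched in either window.
Nppb: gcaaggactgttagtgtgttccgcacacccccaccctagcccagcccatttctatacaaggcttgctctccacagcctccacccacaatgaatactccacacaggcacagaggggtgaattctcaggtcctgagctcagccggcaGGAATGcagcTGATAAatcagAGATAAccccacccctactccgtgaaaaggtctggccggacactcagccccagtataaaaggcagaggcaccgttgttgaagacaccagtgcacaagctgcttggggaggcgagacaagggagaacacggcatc
Nppa: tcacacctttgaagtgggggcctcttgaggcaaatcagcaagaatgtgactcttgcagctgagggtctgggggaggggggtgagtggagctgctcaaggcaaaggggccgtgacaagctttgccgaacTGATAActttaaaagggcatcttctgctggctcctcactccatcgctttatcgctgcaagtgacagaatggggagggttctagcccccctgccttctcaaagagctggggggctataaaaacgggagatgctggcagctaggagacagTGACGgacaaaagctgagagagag

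Nppb was highest 1 h after either form of cyanide, but the difference missed the threshold over all probe sets. At 1 h after HCN the hearts had 12.22, 12.18, 12.21 and 12.42, against 11.60, 11.60, 11.87 and 11.84 in air. The groups did not overlap, the change was 0.53 ± 0.24, a ratio of 1.45 (1.04 to 2.01), and the adjusted p was 0.264. At 1 h after KCN the hearts had 12.13, 12.21, 12.30 and 11.88, against 11.60, 11.21, 11.97 and 10.97 after saline. Here 1 saline heart reached into the KCN range, and the change was 0.69 ± 0.24, a ratio of 1.61 (1.16 to 2.24, adjusted p = 0.082). Fits of the 2 groups alone, which use their own spread, gave adjusted p-values of 0.00587 after HCN and 0.0498 after KCN. With the airway level as a covariate the KCN change was 0.69 ± 0.26 (adjusted p = 0.149). The airway level separated these KCN and saline hearts, so that fit cannot tell it from KCN exposure. Leaving out Saline 1 h replicate 3 gave a change of 0.87 and an adjusted p of 0.0375.

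From 2 h on, Nppb changes ran from -0.14 to 0.09 after HCN and from -0.16 to 0.33 after KCN, with adjusted p-values of 0.616 or more. The range within 1 group could be wide: the 4 air hearts of 2 h had 11.91, 11.03, 12.20 and 10.81. HCN at 1 h was the inhalation group with the highest mean (12.26) and did not overlap the next one, air at 1 h (11.73). Among the injection groups KCN at 1 h had the highest mean (12.13) and overlapped its neighbour. The 2 routes differed by -0.16 ± 0.33 in their 1 h change of Nppb (95% interval -0.82 to 0.51, adjusted p = 0.94).

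Nppa was one of the brightest probe sets of the table, 17th of all by mean, at a log2 signal of 13.10. Its 69 values lay between 12.81 and 13.34. The 9 changes ran from -0.10 at 8 h after KCN to 0.01 at 1 h after KCN, each with an SE of 0.07 or 0.08, and the lowest adjusted p was 0.577. At 1 h, where Nppb was highest, Nppa had 13.05, 13.07, 12.99 and 13.12 after HCN, against 13.12, 13.02, 13.11 and 12.98 in air, and the ranges coincided. The 95% intervals of the HCN changes allow ratios from 0.86 to 1.11. How far the array can resolve changes at so high a signal was not tested.

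**Figure D4:**
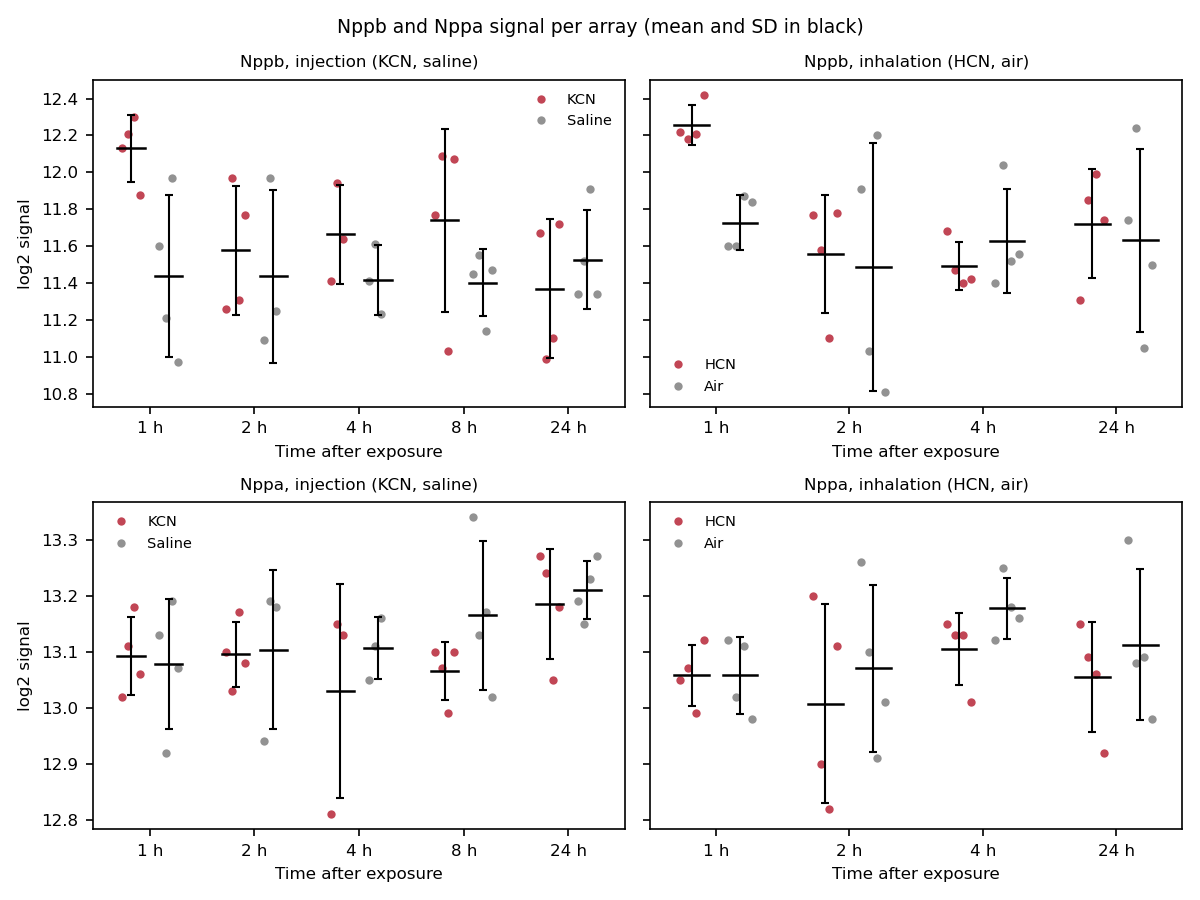
Log2 signal of Nppb (top) and Nppa (bottom) in each heart, with group mean and SD in black, at each time after exposure; cyanide groups are red and their controls gray, injection on the left and inhalation on the right. The 4 HCN hearts of 1 h lie at 12.18 or more in Nppb, above all air hearts of that time, while all Nppa values lie between 12.81 and 13.34.

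Myh7 (chr14:54970684-54994626, GRCm38.p6) has 2 probe sets of very different brightness. The brighter averaged 12.85, 37th of all probe sets by mean, and the dimmer averaged 8.93. The brighter carries the suffix s, which marks sets that can match transcripts of more than 1 gene. Whether its signal comes from Myh7 alone was not tested. The adult partner isoform Myh6 is not in the annotation used here. In the brighter set the KCN hearts of 4 h had 12.55, 12.53 and 12.56, against 12.93, 12.86 and 12.75 after saline. The groups did not overlap, and the change was -0.30 ± 0.08 (adjusted p = 0.0234). At 24 h the KCN hearts had 12.91, 12.97, 12.77 and 12.73, against 12.54, 12.62, 12.60 and 12.72 after saline, and the change was 0.23 ± 0.07 (adjusted p = 0.0173).

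The dimmer set of Myh7 ran the other way at both times, by 0.42 ± 0.49 at 4 h and -0.49 ± 0.42 at 24 h (adjusted p = 0.725 and 0.505). Both calls in the brighter set were under 1.5-fold. At 4 h the call was lost when any of 4 of the 6 hearts was left out (adjusted p up to 0.129). It was also lost under quantile normalization (0.0627) and with the airway level as a covariate (0.107). That level was 8.95 to 12.23 in KCN and 2.92 to 3.13 in saline hearts of 4 h, so it cannot be told from exposure. At 24 h the call was lost without Saline 24 h replicate 1 (0.0811), KCN 24 h replicate 1 (0.0678) or KCN 24 h replicate 2 (0.0884). The F test for a KCN change that differs between times gave an adjusted p of 0.00137 (16.4% of all probe sets called), and the saline controls of the brighter set differed over time as well (adjusted p = 0.00776). In the dimmer set the air controls differed over time (adjusted p = 0.00125), with means of 7.91, 9.72, 9.91 and 8.87 in time order. After HCN the brighter set changed by -0.08 to 0.06, and its lowest adjusted p was 0.618. In the dimmer set the HCN hearts of 4 h had 9.26, 8.98, 8.78 and 9.12, against 9.56, 11.39, 9.40 and 9.28 in air. The groups did not overlap, 1 air heart lay far above the rest, and the change of -0.87 ± 0.42 was not called (adjusted p = 0.234). At 24 h its change after HCN was 0.64 ± 0.42 (adjusted p = 0.344), with overlapping groups.

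Acta1 (chr8:123891758-123894775, GRCm38.p6) varied widely between hearts of 1 group, with group SDs of 0.13 to 0.65. At 24 h after KCN its hearts had 11.74, 12.21, 11.70 and 12.29, against 10.75, 10.85, 11.42 and 11.83 after saline. The lower 2 KCN hearts lay within the saline range, and the change of 0.78 ± 0.30, a ratio of 1.71 (1.12 to 2.61), missed the threshold (adjusted p = 0.0854). It passed in the fit of those 2 groups alone (0.0342) and without Saline 24 h replicate 4 (0.0405). The other 8 changes ran from -0.19 to 0.28, with adjusted p-values of 0.612 or more. The promoter of Acta1 (RefSeq, chr8:123894726-123895025, minus strand, 250 bases before to 50 after the start) is shown as the member promoter that holds a CArG box, the site of serum response factor. That box lies 73 to 64 bases before the start and an M-CAT element 46 to 41 bases before it, both in capitals.
Acta1: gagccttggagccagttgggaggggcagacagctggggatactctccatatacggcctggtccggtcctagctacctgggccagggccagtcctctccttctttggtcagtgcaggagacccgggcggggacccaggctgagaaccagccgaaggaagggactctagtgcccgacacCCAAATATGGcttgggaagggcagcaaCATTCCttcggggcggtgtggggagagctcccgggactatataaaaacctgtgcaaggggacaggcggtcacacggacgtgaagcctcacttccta
A CArG box is held by 1.6% of all promoters of this length, and the promoters of Nppa, Nppb, Flnc, Ankrd1, Myh7 and Xirp2 gave no match to it in this window.

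The 2 routes were set against each other through the difference of their changes at each shared time. At 1 h 0 of the 7 members differed by limma and 0 had an unadjusted p under 0.05, where 0.198% of all probe sets were called. The Xirp1 changes of 0.83 after HCN and 0.80 after KCN were 0.03 ± 0.29 apart (95% interval -0.55 to 0.61). At 2 h Xirp1 differed by 1.19 ± 0.30 (adjusted p = 0.0133) and Flnc by 0.82 ± 0.20 (adjusted p = 0.00854), both larger after HCN, where 5.74% of all probe sets were called. The Xirp1 difference at 2 h was 1.14 with the actin ratio as a covariate (adjusted p = 0.0786) and 1.23 without the 2 HCN hearts of highest actin ratio (adjusted p = 0.0515). At 4 h the Flnc difference was 0.89 ± 0.21 (adjusted p = 0.0165, against 1.87% of all probe sets called), and that of Xirp1 was 0.93 ± 0.31 (adjusted p = 0.0993). The Flnc difference at 4 h lost its call with the airway level as a covariate (0.79, adjusted p = 0.0748). That level separated KCN from saline hearts at 4 h, so this fit cannot tell it from KCN exposure. The Flnc call was also lost when replicate 1 of saline at 4 h was left out (0.0697) and when replicate 1 of KCN at 4 h was (0.0596). At 24 h the Ankrd1 difference in the brighter probe set was -0.52 ± 0.18 (adjusted p = 0.0391, against 18.8% called). It was 0.13 ± 0.15 in the dimmer set (adjusted p = 0.631) and 0.03 in the brighter one with the actin ratio as a covariate (adjusted p = 0.966). The ratio separated exposed from control hearts of 24 h in both arms, so that fit cannot tell ratio and exposure apart. Route, vehicle, dose and the arm's own processing differ together here and cannot be told apart.

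**Figure D5:**
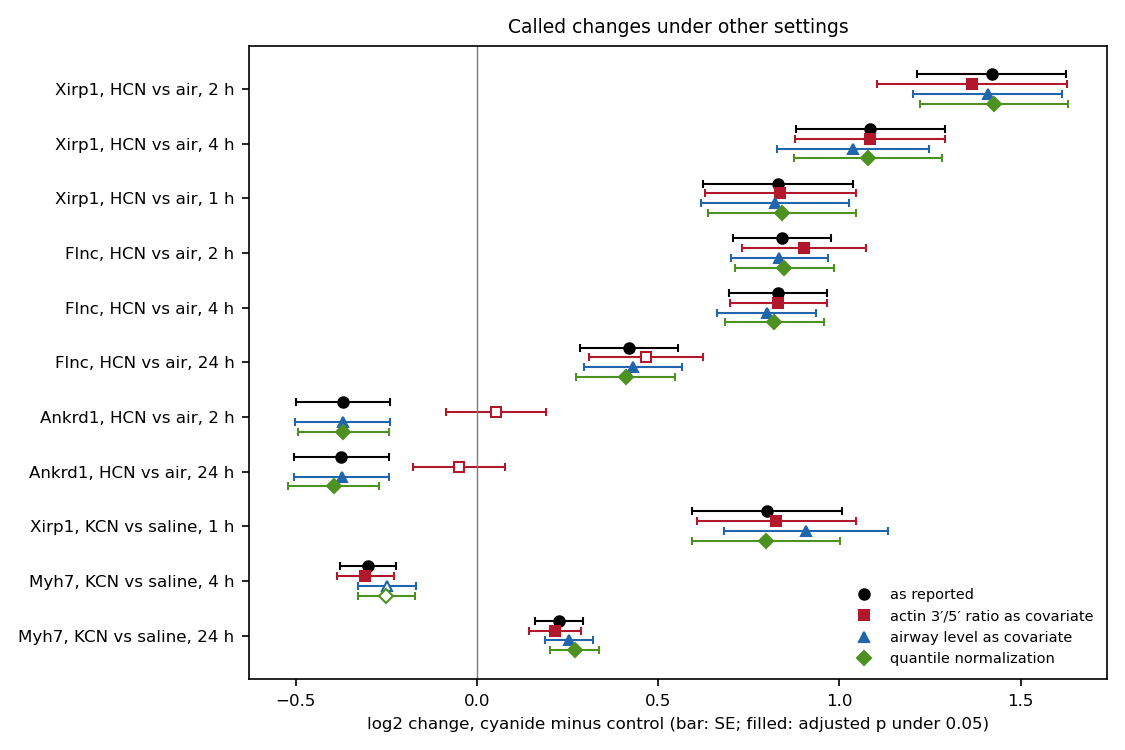
Called changes of Xirp1, Flnc, Ankrd1 and Myh7 (rows) as reported and with the actin 3′ to 5′ ratio as a covariate, with the airway transcript level as a covariate, or after quantile normalization; the horizontal axis is the log2 change, cyanide minus control, bars are SEs and filled symbols passed an adjusted p of 0.05. The Ankrd1 changes of -0.37 at 2 and 24 h move to 0.05 and -0.05 with the actin ratio. Those of Xirp1 and Flnc stay on their side of 0, but Flnc at 24 h after HCN is no longer called. The ratio separated HCN from air hearts at 24 h, so those fits cannot tell ratio and exposure apart.

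Within groups, hearts that were high in Xirp1 tended to be high in Flnc. Over deviations from the group mean, Pearson's r between them was 0.49 in the 32 inhalation arrays and 0.57 in the 37 injection arrays, where each pair of values comes from 1 array and shares its normalization and RNA quality. In the injection arm, Nppa and Ankrd1 had an r of 0.53, against 0.01 in the inhalation arm. These are descriptions without a test.

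Genes with the most similar pattern to a called member were sought by Pearson's r over the 9 changes, among 7202 genes called in at least 1 of them. The highest r of so many genes over only 9 changes is high by selection, and none was tested. For Xirp1 these were Klhl15 (r = 0.93), Ccl3 (0.93) and Litaf (0.91). Litaf changed by 0.58, 1.31 and 0.81 at 1, 2 and 4 h after HCN and by 0.73 at 1 h after KCN, all called. Litaf was also called at 2 h after KCN (0.48, adjusted p = 0.0432), where Xirp1 was not. Klhl15 and Ccl3 were called only at 2 h after HCN, with changes of 0.60 and 0.58. At 1 h after KCN Klhl15 and Ccl3 changed by 0.24 and -0.02 (adjusted p = 0.34 and 0.961). For Flnc they were Mrpl33 (0.96), S100a8 (0.96) and Timm17b (0.95). S100a8, a calcium-binding protein abundant in neutrophils, changed by 1.98 at 2 h and 2.61 at 4 h after HCN, both called, while the changes of Mrpl33 and Timm17b at 2 h were 0.32 and 0.33. For the brighter probe set of Ankrd1 they were Tmlhe (0.98), Dr1 (0.98) and Nedd1 (0.98), and all 3 fell at 2 and 24 h after HCN. The actin ratio was high at those times, and its part in these falls was not tested. For the brighter set of Myh7 they were Atg2a (0.97), Dhx34 (0.97) and Flii (0.96), all of which fell at 4 h after KCN.

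The genes that act with the members were followed through 6 lists, chosen with earlier results of these data known, each with 1 probe set a gene. Targets of serum response factor and its MRTF coactivators, which couple actin dynamics to transcription, had their highest counts of calls at 1 and 2 h after HCN and at 1 h after KCN. Whether these factors acted on the genes here was not tested. At 1 h after HCN, 4 of 14 were higher and 0 lower, with 2.68% of all probe sets called, and the median change was 0.25 against -0.014 over all probe sets. HCN hearts of 2 h had 6 of 14 higher and 0 lower, with 25.3% of all probe sets called, and a median of 0.33 against -0.037 over all probe sets. KCN hearts of 1 h had 5 of 14 higher and 0 lower, with 4.09% of all called, and a median of 0.37 against -0.009. At 2 h after KCN 1 was higher and 1 lower, with 6.59% of all called, and the median was 0.08 against -0.024. Egr1, an immediate early transcription factor, was at 11.81 ± 0.32 after HCN and 7.07 ± 0.48 in air at 1 h (SD, n = 4 each), a change of 4.73 ± 0.41. At 1 h after KCN Egr1 changed by 2.46 ± 0.41. Fos changed by 4.79 ± 0.60 at 1 h after HCN and by 2.66 ± 0.60 at 1 h after KCN, and the matricellular gene Ccn1 by 2.97 ± 0.31 and 2.53 ± 0.31. All 6 of these changes were called. From 4 h on, at most 2 of the 14 were called in any comparison. These were 1 higher at 4 h after HCN (7.35% of all called) and 2 higher at 24 h after KCN (11.9%). The count was 0 at 24 h after HCN (14.3%) and at 4 h (2.26%) and 8 h (0.336%) after KCN.

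Z-disc and intercalated disc proteins did not move as a block. At 2 h after HCN 1 of 24 was higher and 4 were lower, a share no larger than the 25.3% of all probe sets called there, and the median change was -0.05 against -0.037 over all probe sets. At 24 h after KCN 6 were higher and 1 lower, where 11.9% of all probe sets were called, and the median was 0.06 against 0.011. Actn2, the alpha-actinin that anchors thin filaments, changed by 0.42 ± 0.08 at 24 h after KCN, and Cryab, a small heat shock protein of the Z-disc, by 0.39 ± 0.08. Cryab was lower at 2 h after HCN, by -0.30 ± 0.08. Fhl1, a LIM protein of the sarcomere, was higher at 24 h after HCN (0.62 ± 0.12) and at 4 h after KCN (0.49 ± 0.13). Csrp3, a stretch-sensing LIM protein, changed by -0.06 to 0.06 and was not called.

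In the natriuretic peptide list, 0 or 1 of 10 tested genes were called in each of the 9 comparisons. After HCN, 1 was called at 2 h (25.3% of all probe sets called) and at 24 h (14.3%). After KCN, 1 was called at 1 h (4.09%), 2 h (6.59%) and 24 h (11.9%). The count was 0 at 1 h (2.68%) and 4 h (7.35%) after HCN and at 4 h (2.26%) and 8 h (0.336%) after KCN. Pde2a, which degrades cyclic nucleotides, was higher at 24 h after KCN (0.64 ± 0.16), the receptor Npr2 lower at 1 h after KCN (-0.48 ± 0.14), and the protease Furin lower at 2 h after KCN (-0.42 ± 0.12). The clearance receptor Npr3 changed by -0.46 to 0.25 (lowest adjusted p = 0.057) and Corin, the protease that activates ANP, by -0.26 to 0.12 (0.402). Of 8 secreted signals tested, 3 were higher and 0 lower at 1 h after HCN (2.68%), and 2 higher and 1 lower at 2 h (25.3%). At 4 h (7.35%) and 24 h (14.3%) after HCN 1 was higher and 0 lower. After KCN 0 were lower, 2 were higher at 1 h (4.09%), and 1 at 2 h (6.59%), 4 h (2.26%) and 8 h (0.336%). At 24 h after KCN (11.9%) 0 were called. Among them, Agt, the precursor of angiotensin, was called in 8 of the 9 comparisons, always higher. Its change was 2.64 ± 0.32 at 4 h after HCN. Il6 was higher at 1 h after HCN (1.18 ± 0.19), as was Adm, the vasodilator adrenomedullin (0.91 ± 0.18), which was lower at 2 h (-0.53 ± 0.18).

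Of 13 cardiac transcription factors and coactivators, 1 to 3 were called in 7 of the 9 comparisons. After HCN, 0 were higher and 1 lower at 1 h (2.68% of all probe sets called) and at 2 h (25.3%). At 4 h (7.35%) and 24 h (14.3%), 1 was higher and 2 were lower. After KCN, 0 were higher and 2 lower at 1 h (4.09%), and 1 higher and 2 lower at 2 h (6.59%). At 24 h (11.9%) 1 was higher and 1 lower, and at 4 h (2.26%) and 8 h (0.336%) 0 were called. Nkx2-5, a cardiac homeobox factor, was lower at 2 h (-0.71 ± 0.18) and 24 h (-0.57 ± 0.18) after HCN and higher at 24 h after KCN (0.95 ± 0.18). Gata4, a factor that binds GATA sites, was lower at 4 h after HCN (-0.65 ± 0.19) and at 2 h after KCN (-0.99 ± 0.20), and Yap1, the coactivator of TEAD factors, was lower at 1 h after KCN (-0.38 ± 0.09). Of 8 sarcomere and calcium pump genes, 0 to 2 were called in each comparison. HCN hearts of 2 h had 1 higher and 1 lower, with 25.3% of all probe sets called. Only 1 was called, as lower, at 24 h after HCN (14.3%) and at 8 h after KCN (0.336%), and 0 in the other comparisons. Pln, the inhibitor of the calcium pump, was lower at 24 h after HCN (-0.18 ± 0.04) and at 8 h after KCN (-0.19 ± 0.04). In HCN hearts of 2 h the cardiac troponin gene Tnnt2 was higher (0.17 ± 0.05) and Tnni3 lower (-0.10 ± 0.04). Actc1, the cardiac partner of Acta1, changed by -0.12 to 0.08 and was not called (lowest adjusted p = 0.167). The actin ratio was high after HCN at 2 and 24 h, and its part in the changes of these lists at those times was not tested.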

How the data were processed

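The authors deposited 1 table of log2 values for 45141 probe sets on 69 arrays, between 1.83 and 13.94. Per the labels' protocols, total RNA was isolated with RNeasy columns and 100 ng was labelled with an Affymetrix 3′ IVT kit. MAS5 is named in the submitters' processing notes, with no version or role, and the normalization is not given in the sources used here. After 104 control probe sets were left out, 26755 probe sets were tested: those with at least 1 group mean above 3.227, the median of all group means. Limma 3.58.1 in R 4.3.3 fitted 1 mean per group over all arrays, with eBayes and an intensity trend (51 residual degrees of freedom), and Benjamini-Hochberg adjustment over all probe sets. The code was tested on simulated data. Probe sets were named through the platform annotation where it gives 1 symbol.

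All members are named, with up to 3 genes per pathway list by lowest p, the fixed genes Actc1, Csrp3, Npr3 and Corin, and the 3 genes of most similar pattern. The members and lists were chosen with earlier results of these data known. The atrial covariate was the mean of Myl7 and Myl4, since Sln, also planned, is not in the annotation used here. Alternatives covered normalization, filter, variance model, sample set, probe set choice, covariates and single arrays left out. The number of arrays limits the precision.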

Additional observations from a re-analysis of the deposited data

Results flagged for a closer look

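The 9 probe sets were examined in each group of 4 hearts, so the same hearts recur in these 135 sets of values. In 3 of the 135, 1 heart lay apart from the others, fewer than the about 1 in 20 that chance alone gives. In these 3 the gap to the next heart was 0.866 to 0.908 of the range of the group. In the dimmer probe set of Ankrd1, saline 8 h replicate 1 had 12.48 and the next heart 12.07. In the dimmer probe set of Myh7, air 4 h replicate 2 had 11.39 and the next heart 9.56. For Nppa, HCN 4 h replicate 4 had 13.01 and the next heart 13.13.

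The change after HCN differed from that after KCN for Xirp1 at 2 h by 1.19 (adjusted p = 0.0133), for Flnc at 2 h by 0.82 (adjusted p = 0.00854) and at 4 h by 0.89 (adjusted p = 0.0165), and for the brighter probe set of Ankrd1 at 24 h by -0.52 (adjusted p = 0.0391). The Flnc change differed between times after HCN (adjusted p = 0.000688), and that of the brighter Myh7 probe set differed between times after KCN (adjusted p = 0.00137).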

How the results depend on the processing

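For single members, 1804 alternative results kept direction and side of the threshold, 44 lost a call, 15 gained one and 6 reversed. With single arrays left out, 2071 kept both, 35 lost a call and 8 gained one. Where not stated, the cause of a change was not tested. With the actin ratio as a covariate, Ankrd1 reversed to 0.0512 at 2 h after HCN and to 0.0286 in the route difference at 24 h. Myh7 after KCN reversed to -0.13 at 24 h and 0.0588 at 4 h as 1 mean value per gene, and to -0.49 and 0.42 with the probe set of largest variance, since these bring in the dimmer set.

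Counts of members called moved as follows. At 2 h after HCN (3 called), 2 were called with a fit per route, the 2 groups alone, 1 mean value per gene or the actin ratio. The count there was also 2 at 1.5-fold, with adjustment over the 9 comparisons together and without the 2 hearts of highest actin ratio. At 24 h after HCN (2 called), 1 was called with median centring, no filter, no intensity trend, a fit per route, 1 mean value per gene or adjustment over the 9 comparisons together, and 0 with the actin ratio as a covariate or at least 1.5-fold. At that time 3 were called with a stricter filter, the 2 groups alone or the airway level. The average after HCN (3 called) went to 1 and that after KCN to 0 at 1.5-fold. The HCN average gave 2 with a fit per route, 1 mean value per gene, the actin ratio or the atrial level. It also gave 2 without the 2 hearts of highest actin ratio and when 2 h and 24 h were left out of the average. The HCN change between times gave 2 after quantile normalization and 2 without the 2 hearts of highest actin ratio, an alternative chosen after seeing the data, as were the airway covariate and the averages without 2 h or 24 h. The route difference at 2 h gave 1 with the actin ratio and 1 without those 2 hearts. At 4 h it gave 2 with a stricter filter and 0 with the airway level. At 24 h it gave 0 with no filter, 1 mean value per gene, either of the actin and atrial covariates, or 1.5-fold. KCN at 1 h gave 2, at 24 h 3 and at 4 h 0 with the 2 groups alone. KCN at 4 h also gave 0 after quantile normalization, with a fit per route, the airway level, another probe set rule or 1.5-fold, and KCN at 24 h gave 0 with another probe set rule or 1.5-fold. With either probe set rule (largest variance, 1 mean per gene), the KCN change between times gave 0, air controls over time 1 and saline controls 1. Saline controls (2 called) gave 3 with a fit per route or the atrial level.

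Leaving out single arrays gave 0 to 1 members called at 1 h after HCN, 2 to 3 at 2 h, 2 at 4 h, 0 to 2 at 24 h, 2 to 3 in the average and 1 to 2 between times. After KCN it gave 0 to 2 at 1 h, 0 at 2 h, 0 to 1 at 4 h, 0 at 8 h, 0 to 2 at 24 h, and 1 in the average and between times. The route difference gave 0 at 1 h, 2 at 2 h, 0 to 3 at 4 h and 0 to 1 at 24 h, and the controls over time gave 0 for air and 2 for saline. Deviations of same-numbered replicates had a median r of 0.03 over 34 pairs (from -0.14 to 0.32, 9 over 0.1). A replicate block changed no call of a member: Xirp1 stayed at 1.42 at 2 h after HCN and at 0.80 at 1 h after KCN (adjusted p = 0.0127).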
